A study of Mus musculus with 11 samples.

Results

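The miR-34 family was represented on the array by 3 mouse miRNAs, mmu-miR-34a, mmu-miR-34b and mmu-miR-34c (miR-34a, miR-34b and miR-34c below), out of 334 mouse miRNAs. The members were taken as every mouse probe named mmu-miR-34 followed by a, b or c, which gave 12 spots, 4 for each miRNA. Total RNA of mouse mammary tissue was hybridised to 11 custom Agilent miRNA arrays. Of these, 8 held normal mammary glands of late-pregnant females, with 3 arrays of strain FVB129B6, 3 of strain Balbc and 2 of strain FVB. The other 3 held primary mammary tumors of C3TAg females on the FVB background, which carry the C3(1)/Tag transgene for the SV40 large and small T antigens. The promoter of this transgene comes from a rat prostate gene and is active in the ductal epithelium of the mammary gland. The gland labels name no transgene. No age was given for any group, and nothing stated that the gland replicates came from separate animals, so the p-values measure only the spread between these samples. Balbc replicates 2 and 3 have titles that differ only in a final letter L or R and may be 2 glands of 1 mouse.

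The miR-34 family is one of the best known sets of miRNAs under the control of p53, the transcription factor that responds to DNA damage and oncogenic stress. p53 binds near the start of the miR-34a gene and of the gene whose single transcript carries both miR-34b and miR-34c, and it raises their transcription. The mature miRNAs then repress mRNAs of cell cycle and survival genes, among them cyclin-dependent kinases, cyclins, Met and Bcl2. miR-34a is found in most tissues, whereas miR-34b and miR-34c are best known from testis and from lung and other tissues with ciliated epithelia. T antigen binds and inactivates p53 and the retinoblastoma protein, so the C3TAg tumors hold cells in which p53 is blocked, and a comparison of tumors with glands asks whether the family differs with it. A comparison among glands asks how far the family varies with strain.

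A miRNA selects its targets mainly through its seed, bases 2 to 8 from the 5′ end. The mature sequences below are those of RefSeq on the mouse build GRCm38.p6, with the seed in capitals. They are shown because miR-34a, miR-34b and the miR-449 family carry the same 7 seed bases and differ only outside them, so the array told them apart by their remaining bases.
mmu-miR-34a-5p: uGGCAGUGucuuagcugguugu
mmu-miR-34b-5p: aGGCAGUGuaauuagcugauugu
mmu-miR-449a-5p: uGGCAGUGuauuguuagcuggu
mmu-miR-449c-5p: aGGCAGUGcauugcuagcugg
The array probe of miR-34c carried this seed at base 2 of its target as well. The target of the miR-34b probe began 1 base further 5′ than the RefSeq entry, with the seed starting at base 3. The nearest probe to that of miR-34b was that of miR-34c, which differed by 3 base edits (single base changes, insertions or deletions), while the probe of miR-34a differed by 6 from both and by 6 from that of miR-449. Cross-hybridisation between miR-34b and miR-34c could not be measured from these arrays, and the pair is therefore best read together.

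The miR-34a hairpin lies at chr4:150068454-150068555 on the plus strand of GRCm38.p6, outside any gene of the RefSeq gene table, with the nearest gene, Gm13067, 9737 bases away. The other hairpins lie 451 bases apart on the minus strand of chromosome 9, miR-34b at chr9:51103562-51103645 and miR-34c at chr9:51103034-51103110. Both overlap the spans of the protein-coding genes Hoatz and Btg4. The hairpins of miR-449a, at chr13:113037534-113037624, and miR-449c, at chr13:113035983-113036091, lie within the span of Cdc20b. Whether these spans are exonic or intronic at the hairpins was not analysed here.

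The arrays differed in how much they detected, and tumors and glands lay far apart. A miRNA was taken as detected on an array when at least 50% of its spots had a green signal that the scanner's software called well above background. By that measure the FVB129B6 glands detected 257, 262 and 254 of the 334 miRNAs, the Balbc glands 250, 249 and 246, and the FVB glands 229 and 209. The C3TAg tumors detected only 38, 15 and 64. The median green signal over the mouse spots was 520.5, 671.5 and 537 in the FVB129B6 glands and 583, 508 and 559 in the Balbc glands. It was 245.5 and 188.5 in the FVB glands and 170, 140 and 125 in the tumors. The tumors were scanned on another slide and with an older version of the software (9.5.1.1) than the glands (10.5.1.1), so tumor and slide cannot be told apart. All 8 glands shared 1 slide, but the FVB arrays alone occupied its column 4, so strain FVB and that column cannot be told apart either.

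Markers of epithelium were all present in the glands and only partly in the tumors. Of the 6 epithelial miRNAs (miR-200a, miR-200b, miR-200c, miR-141, miR-429 and miR-205), 6 were detected on all 8 glands. On the tumors, miR-205 was detected on all 3, miR-200a on 2, miR-200c and miR-429 on 1, and miR-200b and miR-141 on none. In bulk tissue, fewer cells of a type and less RNA per cell cannot be told apart.

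mmu-miR-34a was plainly present in all 8 glands and still visible in the tumors. Its level is given as log2 of the green signal minus the array's median over all mouse spots, the mean of 4 spots. On this scale it was 3.85 and 4.78 in the FVB glands, 3.62, 3.49 and 3.70 in the FVB129B6 glands, and 2.98, 3.02 and 3.05 in the Balbc glands. The 3 strains did not overlap, with FVB highest and Balbc lowest. The share of all miRNAs whose strains do not overlap was not counted, here or for later statements on overlap. The group means were 4.31 ± 0.66 (SD, n = 2) in FVB, 3.60 ± 0.11 (SD, n = 3) in FVB129B6 and 3.01 ± 0.033 (SD, n = 3) in Balbc. The FVB replicates lay further apart from each other than the FVB129B6 and Balbc means did. All 32 miR-34a spots of the glands were well above background, and the 4 spots of an array varied by an SD of 0.016 to 0.107 (log2). In the tumors the level was 3.11, 2.37 and 3.64, a mean of 3.04 ± 0.64 (SD, n = 3), a range that covered the Balbc values, overlapped the FVB129B6 values and lay below both FVB values. Only 7 of the 12 tumor spots were well above background, 3 on replicate 1, 0 on replicate 2 and 4 on replicate 3, and the spots of a tumor array varied by an SD of 0.688 to 0.704.

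miR-34b and miR-34c, which are made from 1 transcript, were close to the array median in every group. miR-34b was at 0.23 and 0.64 in the FVB glands, at -0.044, -0.22 and 0.022 in the FVB129B6 glands and at 0.18, -0.18 and 0.084 in the Balbc glands. Both FVB values lay above those of the other strains, and the FVB129B6 and Balbc values overlapped. miR-34c followed the same order, at 0.83 and 0.92 in FVB, at 0.21, 0.16 and 0.34 in FVB129B6 and at 0.32, 0.028 and 0.38 in Balbc. Its group means were 0.88 ± 0.057 (SD, n = 2), 0.23 ± 0.093 (SD, n = 3) and 0.24 ± 0.19 (SD, n = 3). For each of these miRNAs all 32 gland spots were well above background and 0 of the 12 tumor spots were. Their tumor values, between -0.022 and 0.043 for miR-34b and at -0.033, 0.47 and -0.13 for miR-34c, are therefore those of a background signal and give no measured level.

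**Figure D1:**
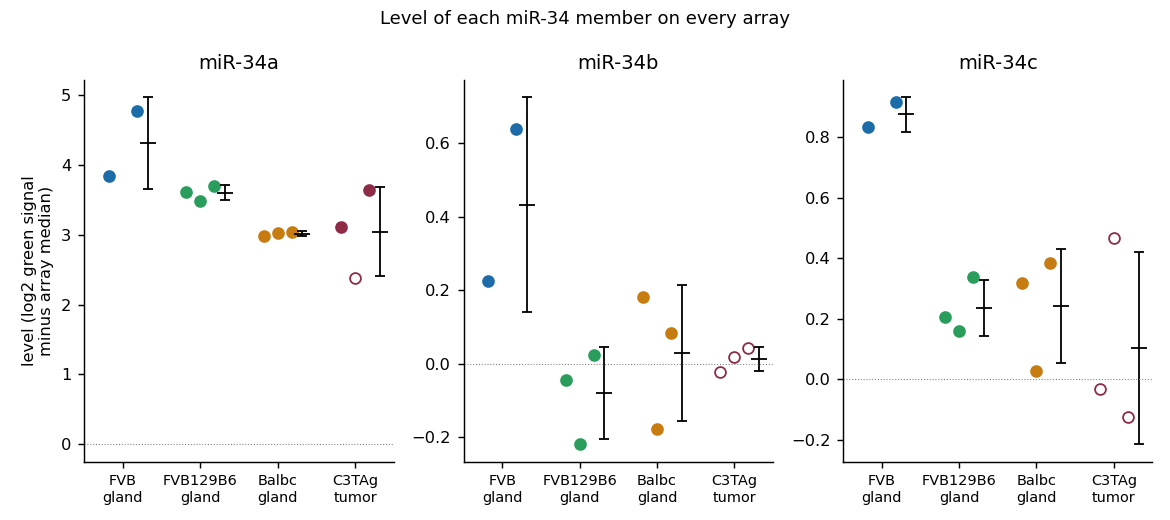
Levels of miR-34a, miR-34b and miR-34c (log2 green signal minus the array median, y axis) on each of the 11 arrays by group, with points for arrays (open where the miRNA was not well above background) and bars for the mean and SD. Each panel has its own y axis. miR-34a falls from FVB (mean 4.31) through FVB129B6 (3.60) to Balbc (3.01) without overlap, while miR-34b and miR-34c stay near the array median of 0.

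Because the array median itself was low in the tumors, the raw signal was also set against the negative control spots of the same array. The median raw green signal of miR-34a was 16.8, 15.6 and 17.1 times that of the controls in the FVB129B6 glands. It was 9.27, 10.3 and 11.6 times in the Balbc glands and 6.88 and 11 times in the FVB glands. On this scale FVB129B6 was highest and the FVB and Balbc ranges overlapped, unlike the order after scaling to the array median. In the tumors miR-34a was only 1.28, 1.15 and 1.47 times the controls. miR-34b ranged from 1.45 to 2.29 times in the glands and from 0.975 to 1.06 in the tumors, and miR-34c from 1.69 to 2.69 and from 1.01 to 1.06. For both, the FVB glands were the lowest of the glands on this scale, where after scaling they were the highest.

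**Figure D2:**
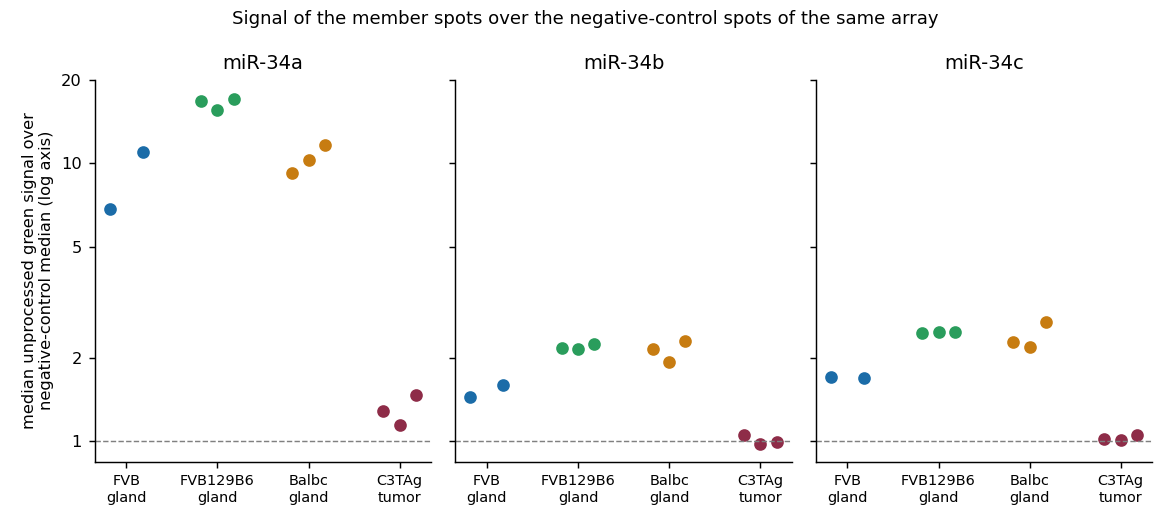
Median raw green signal of each miR-34 member divided by the median of the negative control spots on the same array (y axis, log scale), by array and group, with a dashed line where both are equal. miR-34a reaches 17.1 times the controls in a FVB129B6 gland and at most 1.47 times in the tumors, where miR-34b and miR-34c lie at the controls.

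Among the 3 strains, miR-34a and miR-34c passed the moderated F-test of limma over the 8 glands and miR-34b did not. The range of the strain means was 1.30 (log2) for miR-34a, with a limma adjusted p of 0.0161 (Benjamini-Hochberg over 261 miRNAs), 0.64 for miR-34c with a limma adjusted p of 0.0332, and 0.51 for miR-34b with a limma adjusted p of 0.135. These calls stand against a background in which 120 of 261 miRNAs (46.0%) passed the same test, so that a call was common on these arrays. Both calls were lost with the 75th percentile (limma adjusted p = 0.0552 for miR-34a and 0.465 for miR-34c) and with quantile normalization (limma adjusted p = 0.0584 and 0.0637). In an exact permutation of the strain labels over the 8 glands, p was 0.00357 for miR-34a, the smallest that the 560 relabelings allow, 0.0393 for miR-34b and 0.0357 for miR-34c.

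miR-34a was 2.46-fold lower in Balbc than in FVB glands, a log2 difference of -1.30 ± 0.26 (SE) (limma adjusted p = 0.0102). miR-34c fell by 0.63 ± 0.17 (SE) in the same comparison (limma adjusted p = 0.0235), and miR-34b differed by -0.40 ± 0.20 (SE) (limma adjusted p = 0.143). In this comparison 37.9% of the 261 miRNAs passed in either direction, 32.2% lower and 5.75% higher in Balbc, and the median difference over all miRNAs tested was -0.48. Relative to that median, miR-34a was at -0.82, miR-34b at 0.077 and miR-34c at -0.15. Most of the miR-34c difference, and a smaller share of that of miR-34a, was thus matched by the median miRNA. The value of -0.82 does not depend on which constant an array is scaled by, but it was -0.34 with normexp background correction and -0.40 with the local background subtracted, and with both corrections miR-34a lost its call (limma adjusted p = 0.120 and 0.0832). With no scaling at all the miR-34a difference was 0.055. The miR-34c call was lost in 4 of the 8 fits that left out 1 array (FVB129B6 replicate 1, Balbc replicate 1, Balbc replicate 2 or FVB replicate 2). It was also lost under each of the other scalings and background corrections. With no scaling miR-34c passed in the opposite direction, with a difference of 0.72, where 151 of 261 miRNAs passed as higher in Balbc. Leaving out FVB replicate 2 reduced the miR-34a difference to -0.83, and leaving out FVB replicate 1 enlarged it to -1.76, with the call kept in both.

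Between FVB129B6 and FVB glands only miR-34c passed, with a log2 difference of -0.64 ± 0.17 (SE), lower in FVB129B6 (limma adjusted p = 0.0205). miR-34a differed by -0.71 ± 0.26 (SE) (limma adjusted p = 0.0636) and miR-34b by -0.51 ± 0.20 (SE) (limma adjusted p = 0.0710). Here 39.5% of all miRNAs tested passed, 31.4% lower and 8.05% higher in FVB129B6, and the median difference was -0.39, which left -0.32, -0.12 and -0.25 for miR-34a, miR-34b and miR-34c relative to it. The miR-34a difference rested on 1 FVB gland: it was -0.24 without FVB replicate 2 and -1.17 without FVB replicate 1, when it passed (limma adjusted p = 0.0053). The miR-34a difference was negative in 15 of 17 other settings and turned positive with no scaling and with normexp background correction. The miR-34c call was kept with quantile normalization, turned to a difference of 0.77 with no scaling, and was lost with each of the other scalings and background corrections. It was also lost without FVB replicate 2, FVB129B6 replicate 1 or FVB129B6 replicate 2.

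The contrast of Balbc with FVB129B6 glands was the least affected by scaling, since the median difference over all miRNAs was 0.027 and only 3.45% of miRNAs passed, 2.30% lower and 1.15% higher in Balbc. miR-34a was lower in Balbc by a difference of -0.59 ± 0.24 (SE) with no overlap between the strains, but it did not pass (limma adjusted p = 0.207). It was negative in 17 of 17 other settings and passed in none of them. miR-34b differed by 0.11 ± 0.18 (SE) and miR-34c by 0.0083 ± 0.15 (SE), with limma adjusted p of 0.814 and 0.987.

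**Figure D3:**
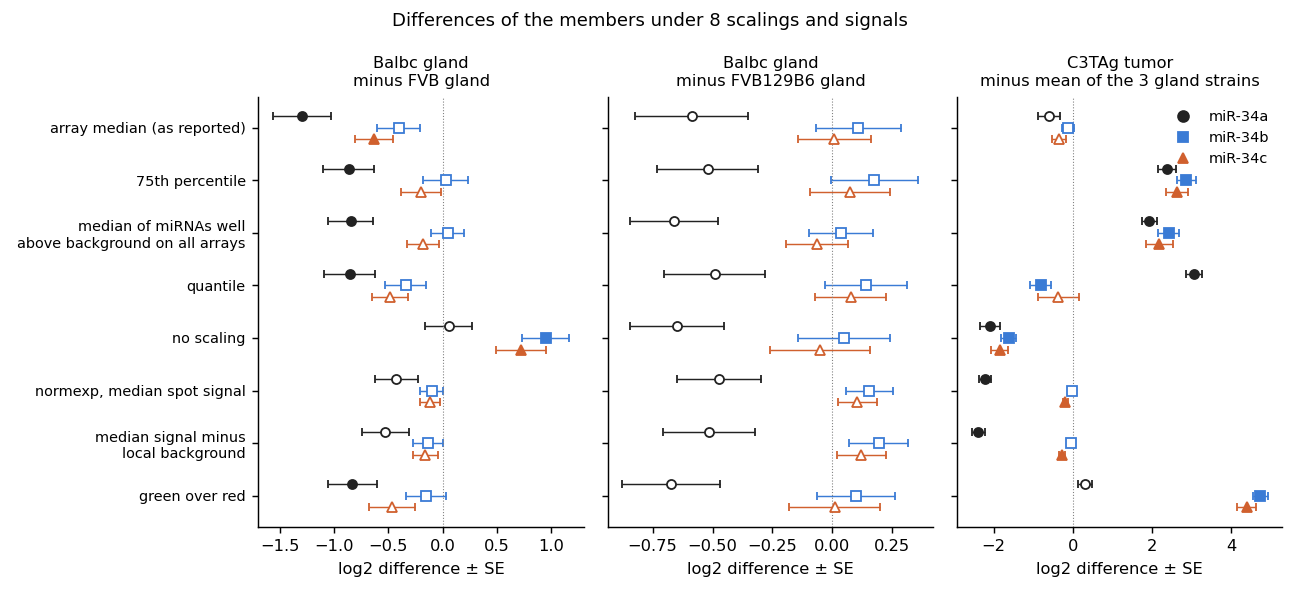
Difference between groups (log2, x axis) for each miR-34 member under 8 scalings and background corrections, with bars for the SE and filled symbols for a limma adjusted p under 0.05. For Balbc against FVB129B6 glands miR-34a stays below 0 throughout, whereas the differences of Balbc from FVB glands and of tumors from the mean of the glands change size or sign with the setting. The tumor values of miR-34b and miR-34c are those of a background signal.

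Since scaling between arrays moved these values, the members were also compared within each array, where no such scaling enters; this comparison was added after the data had been seen. The difference miR-34a minus miR-34b (log2 green signal) was 3.66, 3.71 and 3.68 in the FVB129B6 glands, 2.80, 3.20 and 2.96 in the Balbc glands, and 3.62 and 4.14 in the FVB glands. Every Balbc array lay below every array of the other strains, and FVB129B6 and FVB overlapped. The means were 3.68 ± 0.024 (SD, n = 3), 2.99 ± 0.20 (SD, n = 3) and 3.88 ± 0.36 (SD, n = 2). The gap between Balbc and FVB129B6 was -0.70, with an exact permutation p of 0.1, the smallest possible for 3 arrays against 3, or 0.2 after Benjamini-Hochberg adjustment over the 8 such comparisons. Over the 3 strains the exact permutation p was 0.0179, adjusted 0.143.

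miR-34a minus miR-34c gave the same order. It was 3.41, 3.33 and 3.36 in FVB129B6, 2.66, 2.99 and 2.66 in Balbc, and 3.01 and 3.86 in FVB. Balbc again lay lowest on every array, by -0.60 against FVB129B6 and -0.66 against FVB, with exact permutation p of 0.1 and 0.2, the smallest each design allows. Over the 3 strains the exact permutation p was 0.0714, adjusted 0.2. With the local background subtracted in place of the software's own correction, Balbc stayed below FVB129B6 without overlap, by -0.71 for the first pair and -0.64 for the other, but then overlapped FVB. In the red channel the order of these strains was the other way, Balbc lying above FVB129B6 by 0.075 for the first pair and by 0.088 for the other. Against FVB, Balbc was lower in red as in green, by -0.21 and -0.29 without overlap. Over the 3 strains the exact permutation p in red was 0.0571 for the first pair and 0.00357 for the other.

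**Figure D4:**
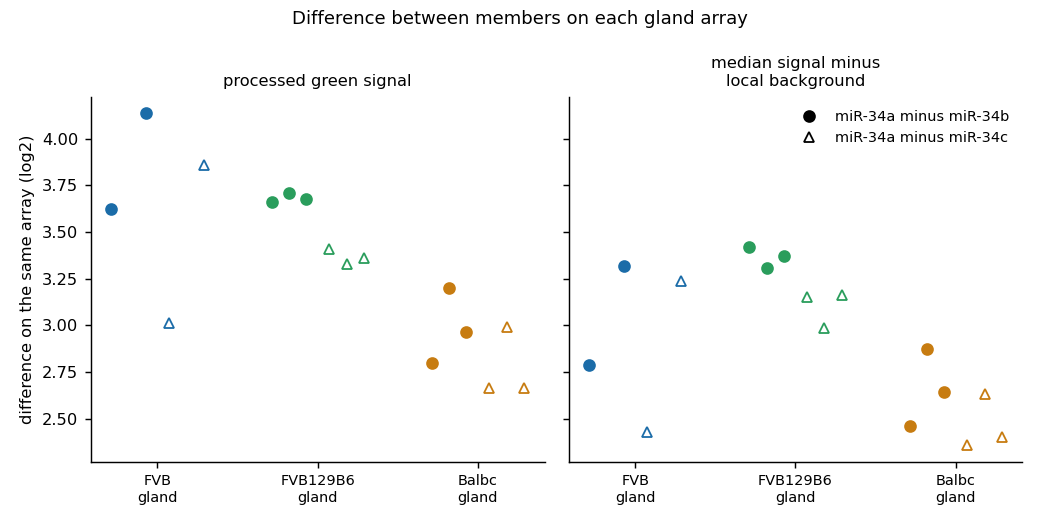
Difference between the log2 green signals of miR-34a and of miR-34b or miR-34c on the same array (y axis) for the 8 glands by strain, with filled circles for miR-34a minus miR-34b and open triangles for miR-34a minus miR-34c. In the left panel (processed green signal) the 3 Balbc arrays lie lowest, at 2.80 to 3.20 against 3.66 to 3.71 in FVB129B6 for the circles, and in the right panel (local background subtracted) they lie below FVB129B6 but overlap FVB.

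Set against the glands, miR-34a in the tumors did not pass. Its difference from the mean of the strains was -0.60 ± 0.27 (SE), with a limma adjusted p of 0.0560. It averaged all 12 tumor spots, of which 7 were well above background. Leaving out 1 array moved it between -0.90 and -0.26, and it passed without tumor replicate 3 (-0.90) or FVB replicate 1 (-0.75). It also passed in 6 of 15 other settings, in 3 of them as higher in tumors and in 3 as lower. In the same contrast 90.4% of all miRNAs tested passed, 52.5% lower and 37.9% higher in tumors, and the median difference was -0.83. Since the tumors detected only 38, 15 and 64 of the 334 miRNAs, many of these calls rest on a tumor background signal. The shares of all miRNAs given below for tumors carry the same limit. An exact permutation of tumor and gland labels over the 11 arrays gave a p of 0.279 for miR-34a, where 0.0121 was the smallest possible.

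Against FVB glands alone, the strain of the tumors, miR-34a was lower, with a log2 difference of -1.27 ± 0.36 (SE) (limma adjusted p = 0.00739). This was close to the median of all miRNAs in that contrast, -1.04, and 88.1% of miRNAs passed, 52.5% lower and 35.6% higher in tumors. The difference was negative in 12 of 15 other settings. It passed as higher in tumors with the 75th percentile (1.97, limma adjusted p = 2.1e-05), where the median was 2.20. Scaled to the median of miRNAs detected on every array it was 1.69 (limma adjusted p = 5.2e-05), where the median was 1.92. With quantile normalization miR-34a also passed as higher in tumors, at 2.72, but there the median of all miRNAs was -0.29. The methods' t-test lost the call. The miR-34a call was lost without FVB replicate 2 (-0.80, limma adjusted p = 0.0925).

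The direction of the tumor difference depended on the scaling. With the 75th percentile in place of the median as each array's reference, miR-34a in the tumors was 2.38 above the mean of the glands, and with no scaling the difference was -2.10. The median of all miRNAs tested moved likewise, from -0.83 to 2.14 with the 75th percentile and to -2.34 with no scaling. With quantile normalization they parted, miR-34a being 3.06 higher in tumors and the median difference of all miRNAs -0.15. For miR-34b and miR-34c the median-scaled level gives no difference of measured levels between tumors and glands, since no tumor spot was above background. The tumor differences printed for them below are those of a background signal. That holds also for the limma call of miR-34c as lower than in FVB glands (-0.77, limma adjusted p = 0.00869). The dimmest miRNA well above background on a tumor array was at a level of 1.23 to 2.13, above the gland means of miR-34b (0.13) and miR-34c (0.45), so on this scale a tumor level equal to that of the glands would lie under the limit. This limit holds for the scaled level only. On the raw signal the software called 3 of 4 miR-34a spots on tumor replicate 1 at 1.28 times the controls, below the 1.45 to 2.29 times of miR-34b and the 1.69 to 2.69 times of miR-34c in the glands.

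Another dye was scanned on each array, and the red signal of the family did not follow the green. The labels name Hy3, read in green, as each sample's dye, but the labelling protocol allows Hy3, Hy5 or both, so the red channel may hold the same RNA or another, and which was not stated. On the 8 glands the red level of miR-34b was 4.08 to 4.41 and that of miR-34c 4.29 to 4.95 (log2 red signal minus the array's red median), with all 32 spots of each well above background. The red level exceeded the green by 3.44 to 4.59 for miR-34b and by 3.37 to 4.92 for miR-34c. For miR-34a red minus green differed by strain. It was 0.73 to 0.93 in Balbc, -0.12 to 0.020 in FVB129B6, and -0.13 and -0.97 in FVB. The mean red level of miR-34a was 3.82 ± 0.12 (SD, n = 3) in Balbc, 3.77 ± 0.063 (SD, n = 2) in FVB and 3.57 ± 0.11 (SD, n = 3) in FVB129B6. The green order of the strains, FVB highest and Balbc lowest, was thus absent in red. In the tumors, 12 of 12 red spots of miR-34a were well above background and 1 of 12 for each of the others.

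**Figure D5:**
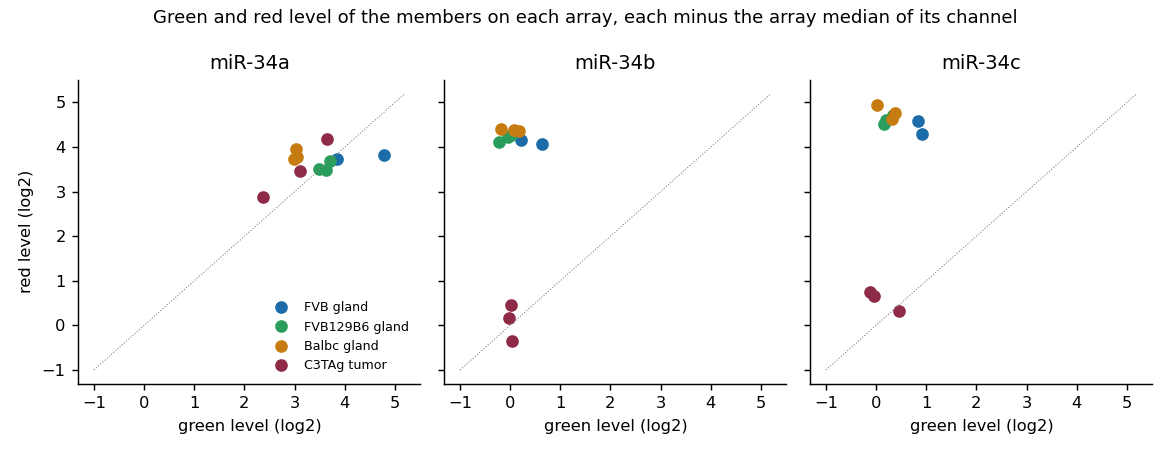
Green level against red level (log2 signal minus the median of the same channel) of each miR-34 member, 1 point for each array, coloured by group, with a dotted line where both are equal. In the glands miR-34b and miR-34c lie near 0 in green and between 4.08 and 4.95 in red. miR-34a lies nearer the line of equal levels, above it in Balbc and below it in FVB.

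Of the other miRNAs with this seed at bases 2 to 8, only miR-449 could be tested. The miR-449 miRNAs share the targets set by the seed and are known from ciliated cells. miR-449 was detected on 6 of 8 glands and on no tumor, with 23 of its 32 gland spots well above background. Its level was -2.67 and -2.78 in FVB, -0.96, -1.66 and -1.92 in FVB129B6, and -2.15, -3.45 and -3.32 in Balbc. FVB129B6 thus lay highest and the others overlapped, but only 1 of the 8 FVB spots was well above background, so the FVB values are not measured levels. The strains differed by limma's F-test (adjusted p = 0.0372), a call that was lost with the 75th percentile, quantile normalization, normexp, local background subtraction and green over red. The probe named miR-449b, whose target is the RefSeq miR-449c-5p, was detected on 1 of 8 glands and was not tested. miR-699, which holds the same 7 bases starting at base 3, was detected on all 8 glands and no tumor and did not pass between strains (limma adjusted p = 0.434). It passed under the other scalings and background corrections except quantile normalization.

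Of the 10 other miRNAs known to be raised by p53 through their transcription or processing (miR-192, miR-194, miR-215, miR-143, miR-145, miR-15a, miR-16, miR-107, miR-200c and miR-22), all 10 were tested. Between Balbc and FVB glands 5 were lower in Balbc (miR-107, miR-192, miR-194, miR-200c and miR-22) and 0 higher, against 32.2% lower and 5.75% higher over all miRNAs. The median difference was -0.96 against -0.48 over all miRNAs. miR-192 was detected on only 3 of 8 glands. Between FVB129B6 and FVB 4 were lower (miR-107, miR-192, miR-194 and miR-22), near the 31.4% over all miRNAs, with a median of -0.74 against -0.39. Between Balbc and FVB129B6 0 passed by limma, where 3.45% of all miRNAs did. An unadjusted p under 0.05 was found for 3 of the 10 and for 55 of all 261 tested. The median was -0.027 against 0.027. The counts depended on the scaling: with the 75th percentile only miR-107 was lower in Balbc than in FVB, where 16 of 261 miRNAs were lower and 31 higher. With no scaling 0 were lower and 4 higher (miR-143, miR-145, miR-15a and miR-16), where 0 of 261 were lower and 151 higher.

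miR-107, processed from an intron of a pantothenate kinase gene, was at 7.15 and 7.04 in FVB, at 6.21, 6.14 and 6.32 in FVB129B6 and at 5.87, 5.85 and 5.89 in Balbc. Its strains fell in the order of miR-34a without overlap. The difference of Balbc from FVB was -1.22 (limma adjusted p = 0.0024). miR-22 was at 8.37 and 8.00 in FVB, at 6.41, 6.86 and 6.72 in FVB129B6 and at 7.29, 7.35 and 6.90 in Balbc, so that FVB129B6 and not Balbc was lowest.

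In the tumors 8 of these 10 were lower than the mean of the glands and 2 higher, against 52.5% lower and 37.9% higher over all miRNAs. For the 6 detected on no tumor (miR-192, miR-194, miR-215, miR-143, miR-15a and miR-22) the tumor value is that of a background signal, so no median difference of the list is given. The 2 higher, miR-192 and miR-215, were detected on no tumor and on 3 of 8 glands each, so their difference is not one of measured levels, and with quantile normalization 7 were lower and 0 higher, where 103 of 261 miRNAs were lower and 76 higher. Lower under every scaling and background correction tried were 4 of them, miR-143, miR-145, miR-200c and miR-22. miR-145, a miRNA of smooth muscle and fibroblasts, was the only one of the 10 detected on all 3 tumors, at 2.99, 2.53 and 3.67 against 7.49 to 8.71 in the glands. miR-107 was detected on 2 tumors, miR-16 and miR-200c on 1, and the other 6 on none. miR-34a, also detected on 2 tumors, differed from the mean of the glands by -0.60, miR-107 by -3.45 and miR-145 by -4.85.

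Of the miRNAs known to bind the mRNA of Trp53 itself, miR-125b, miR-25 and miR-30d were tested, and miR-504 was not matched. miR-25 and miR-30d were lower in both Balbc and FVB129B6 than in FVB with the median scaling, against 32.2% and 31.4% of all miRNAs, and in neither with the 75th percentile. The median difference of these 3 miRNAs was -0.53 in Balbc and -0.56 in FVB129B6, against -0.48 and -0.39 over all miRNAs. In the tumors miR-125b and miR-30d were called lower than the mean of the glands, as were 52.5% of all miRNAs. miR-30d was detected on no tumor and miR-125b on 1, so these are mostly differences of a background signal, and the miR-125b call was lost with quantile normalization. miR-25 was detected on all 3 tumors, at 4.27, 2.92 and 5.80 against 4.69 to 5.61 in the glands, and did not pass, with a difference of -0.69. Its direction turned with the scaling: it passed as higher in tumors with the 75th percentile, the median of miRNAs detected on every array, quantile normalization and green over red, and as lower with no scaling, normexp and local background subtraction.

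Markers of other cell types moved between the same strains. All 3 skeletal muscle miRNAs matched (miR-1, miR-133b and miR-206) were higher in FVB129B6 and in Balbc than in FVB under every scaling. With the median scaling 8.05% and 5.75% of all miRNAs were higher in these contrasts, but with no scaling 176 and 151 of 261 were. miR-1 was at 2.38 and 4.06 in FVB, at 7.25, 7.44 and 7.41 in FVB129B6 and at 8.89, 8.67 and 8.06 in Balbc. The summed level of the muscle list, led by miR-133b, was 3.64 and 6.02 in FVB, 8.45 to 8.62 in FVB129B6 and 9.17 to 9.97 in Balbc, the reverse of the order of miR-34a. Its part in the miR-34a differences was not tested.

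The 3 red blood cell miRNAs, led by miR-451, summed to 9.53 and 9.61 in FVB, 6.83 to 7.39 in FVB129B6 and 7.67 to 8.72 in Balbc, and 3 of 3 were lower in FVB129B6 than in FVB, against 31.4% of all miRNAs. The 6 epithelial miRNAs, led by miR-200a or miR-200b, summed to 8.68 and 9.78 in FVB, 8.84 to 9.22 in FVB129B6 and 8.02 to 8.91 in Balbc, and 1 of 6 was lower in Balbc than in FVB, against 32.2% of all miRNAs. Of the 4 smooth muscle and fibroblast miRNAs and the 4 white blood cell miRNAs tested, 0 passed limma's F-test between strains, with 1 and 0 at an unadjusted p under 0.05, where 46.0% of all miRNAs passed. A single Balbc array stood apart: the white blood cell miRNAs summed to 8.40 on Balbc replicate 2 against 5.27 and 5.35 on the other Balbc arrays, with miR-150 at 6.90 against 2.48 and 2.21 and miR-142-5p at 7.57 against 3.78 and 3.85. miR-34a on that array, at 3.02, lay between the other Balbc arrays, and without it miR-34a in Balbc minus FVB was -1.30 (limma adjusted p = 0.0229). In the tumors, which also had the lowest epithelial sums (4.19 to 4.63), 6 of 6 epithelial, 3 of 3 skeletal muscle, 3 of 3 red blood cell, 4 of 4 smooth muscle and fibroblast and 2 of 4 white blood cell miRNAs were lower than the mean of the gland strains, against 52.5% of all miRNAs. Of the skeletal muscle miRNAs, miR-1 was detected on no tumor and miR-133b and miR-206 on 1 each. Against FVB glands alone, 1 of the 3 skeletal muscle miRNAs was lower and 1 higher, where 52.5% and 35.6% of all miRNAs were. The higher one was miR-206, at 0.53, 0.16 and 1.88 in the tumors and -1.83 and 0.064 in FVB (limma adjusted p = 0.0199), although it was detected on only 1 tumor. With no scaling 2 of the 3 were lower and 0 higher, where 154 of 261 miRNAs were lower and 69 higher. With green over red 0 were lower and 2 higher, where 72 of 261 were lower and 85 higher. The 1 endothelial miRNA tested, miR-126-5p, was higher than the mean of the gland strains by 3.28 but was detected on no tumor. With the 75th percentile the counts against the mean of the gland strains were 5 lower and 0 higher for epithelium, 2 and 1 for skeletal muscle, 1 and 1 for red blood cells, 3 and 1 for smooth muscle and fibroblasts and 1 and 1 for white blood cells, where 70 of 261 miRNAs were lower and 172 higher. The red blood cell miRNAs were detected on no tumor. The part of cell composition in the miR-34 values was not tested.

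Across the 8 glands miR-34b and miR-34c varied most nearly together (r = 0.90, n = 8 arrays), which share 1 transcript and have the nearest probes. miR-34a correlated with them at r = 0.71 and r = 0.76, at ranks 72 and 57 among the 203 miRNAs detected on all 8 glands. The 5 nearest to miR-34a were miR-187 (r = 0.972), miR-181b (0.962), miR-210 (0.959), miR-138 (0.956) and miR-146b (0.951). All 5 had their highest mean in FVB and their lowest in Balbc, as miR-34a did. Since they were picked by correlation over these same arrays, the shared order is no separate result. miR-146b averaged 8.69 ± 1.03 (SD, n = 2) in FVB, 7.87 ± 0.18 (SD, n = 3) in FVB129B6 and 7.07 ± 0.46 (SD, n = 3) in Balbc. These arrays share a slide and the same scaling. Of the 5, all 5 were again the nearest with the 75th percentile, but only 2 with quantile normalization and only 2 without either FVB array.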

How the data were processed

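The 11 arrays were grouped by strain and tissue from the sample descriptions. For each array the authors deposited Agilent Feature Extraction output, from which the green (Hy3) signal, an intensity already background-subtracted and dye-normalized by the scanner's software, was used. The deposited log2 table was the same green signal plus 1 constant for each array, with all 12 member spots retained. Here log2 intensities were centred on each array's median over the mouse spots, outlier spots were dropped and 4 spots averaged for each of 334 miRNAs. miRNAs well above background on at least 3 arrays were tested, 261 in all, with limma 3.58.1 in R 4.3.3 (lmFit, eBayes, Benjamini-Hochberg, threshold 0.05). This stood in for the detection filter of the study's methods. Strains were compared over 8 glands and tumors over 11 arrays, and the scripts were tested on simulated data. Array number limits the precision.

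Named were all members, miRNAs of the same seed, the p53 lists, the nearest probes and the 5 miRNAs most correlated with miR-34a. The members, lists and tests were chosen with earlier results of these data known. Alternatives were another scaling, background correction, filter, test, block or set of arrays.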

Additional observations from a re-analysis of the deposited data

Results flagged for a closer look

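The red channel, which entered the comparisons only in alternatives (green over red and the red differences within arrays), held a signal for all 3 members on all 8 glands. The mean red level over these glands (log2 red signal minus the array's red median) was 3.71 for miR-34a, 4.25 for miR-34b and 4.63 for miR-34c. These values were singled out because signal appeared in a channel whose content the labels do not state. All 32 gland spots of each miRNA were well above background in red.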

How the results depend on the processing

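Array medians near background in the tumors, 2 FVB glands and a shared array column for them limit what these arrays can show, and 0 of 12 tumor spots of miR-34b and miR-34c were above background. Over 456 values of the members under alternatives, 354 kept direction and call, 44 lost the call, 18 gained one and 40 changed sign, 23 of them in tumor comparisons. Except where stated, the cause was not tested. All tumor values of miR-34b and miR-34c given here are differences of a background signal, not of measured levels. With the 75th percentile the strain range was 0.87 for miR-34a and 0.28 for miR-34c (limma adjusted p = 0.0552 and 0.465), FVB129B6 minus FVB was -0.28 for miR-34c, Balbc minus FVB was 0.027 for miR-34b and -0.20 for miR-34c, and tumor minus FVB was 1.97, 2.82 and 2.47 for miR-34a, miR-34b and miR-34c (minus the mean of the glands, 2.38, 2.86 and 2.63). Scaled to the median of the miRNAs detected on every array, miR-34c had a strain range of 0.18 and differences of -0.12 (FVB129B6 minus FVB), -0.18 (Balbc minus FVB) and -0.065 (Balbc minus FVB129B6), miR-34b differed by 0.0091 and 0.045 in the first pair of these, and tumors differed from the mean of the glands by 1.93, 2.42 and 2.18 and from FVB by 1.69, 2.54 and 2.19. Quantile normalization gave strain ranges of 0.86 (miR-34a) and 0.56 (miR-34c), Balbc minus FVB of -0.49 (miR-34c), tumor minus mean of 3.06 (miR-34a) and -0.81 (miR-34b), and tumor minus FVB of 2.72, -1.02 and -0.62. With no normalization FVB129B6 minus FVB was 0.70, 0.90 and 0.77, Balbc minus FVB 0.055, 0.95 and 0.72, the strain range of miR-34b 0.95, Balbc minus FVB129B6 of miR-34c -0.052, tumor minus mean -2.10, -1.62 and -1.85, and tumor minus FVB of miR-34b -1.0. Normexp on median spot signals gave strain ranges of 0.47 (miR-34a) and 0.22 (miR-34c), FVB129B6 minus FVB of 0.047 and -0.22, Balbc minus FVB of -0.43 and -0.12, and tumor minus mean of -2.22 and -0.19 for the same pair. Local background subtraction, added after seeing the data, gave 0.53 and 0.28, -0.53 and -0.16 for Balbc minus FVB, -0.28 for FVB129B6 minus FVB (miR-34c), and tumor minus mean of -2.38 and -0.27; within arrays it turned FVB129B6 minus FVB to 0.32 for miR-34a minus miR-34b and 0.27 for miR-34a minus miR-34c. Green over red gave strain ranges of 0.83 (miR-34a) and 0.47 (miR-34c), -0.47 and -0.46 for miR-34c against FVB, tumor minus mean of 0.32, 4.73 and 4.39, and tumor minus FVB of -0.015, 4.59 and 4.07. A floor at the dimmest detected signal gave tumor differences of 1.67 and 1.36 for miR-34b and 1.34 and 0.92 for miR-34c. The methods' t-test lost the tumor minus FVB calls of miR-34a (-1.27) and miR-34c (-0.77), the latter a call on a background signal. With all 11 arrays in the fit miR-34c lost its calls between strains (0.64, -0.64 and -0.63). Without a detection filter miR-34a passed between FVB129B6 and FVB (-0.71, limma adjusted p = 0.0478), and the array row as a block turned miR-34c to -0.024 between Balbc and FVB129B6. Restricted to miRNAs well above background on every array, no member was left in the tumor comparisons, because 15 miRNAs remained.

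Leaving out 1 array at a time gave, for miR-34a, -1.17 to -0.24 (FVB129B6 minus FVB), -0.90 to -0.26 (tumor minus mean, passing without tumor replicate 3 or FVB replicate 1) and -1.73 to -0.80 (tumor minus FVB). For miR-34b it gave -0.72 to -0.31 (FVB129B6 minus FVB), passing without FVB replicate 1. Its tumor minus FVB values, of a background signal, were -0.63 to -0.21 and passed in the same fit. For miR-34c it gave 0.60 to 0.70 (strain range), -0.69 to -0.60 (FVB129B6 minus FVB), -0.70 to -0.53 (Balbc minus FVB) and -0.062 to 0.12 (Balbc minus FVB129B6). Its tumor minus mean values, of a background signal, were -0.53 to -0.23 and passed without tumor replicate 2. Its strain call was lost without FVB129B6 replicate 1 or 2, Balbc replicate 1 or either FVB array.

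Counts of calls moved too. The 120 miRNAs of the strain test became 76 with the 75th percentile and with quantile normalization, 60 with green over red and 195 without a filter, and as few as 76 with 1 array left out. FVB129B6 against FVB went from 103 to 179 with no normalization, 39 with green over red and 191 without a filter. Balbc against FVB went from 99 to 47, 54 and 65 with the 75th percentile, quantile normalization and green over red, to 151 with no normalization, 178 without a filter and 65 with 11 arrays. Balbc against FVB129B6 went from 9 to between 0 and 17. Of the calls of Balbc against FVB, 15.2% were higher in Balbc, but 66.0% with the 75th percentile and 100% with no normalization. Tumor counts of 236 and 230 became 13 and 12 among the 15 miRNAs detected everywhere.

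Replicate numbers did not pair the samples: deviations of same-numbered samples correlated at a mean r of 0.0440 over 15 pairs, against -0.0221 over 30 others. With the replicate block Balbc minus FVB was -1.33 for miR-34a and -0.69 for miR-34c, no member's call changed, and the Balbc against FVB129B6 count became 14.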
